A study of Mus musculus with 2 samples.

Results

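The genes described here encode the IL-3 growth signalling pathway on which Ba/F3 cells, a mouse hematopoietic line, depend. They are 10 genes, taken by gene symbol, out of 24091 gene symbols with reads, and they hold 22 of the 48876 Ensembl transcripts listed. The rule of choice used no measured value, though the genes were chosen with earlier results of these data known. RNA that came down with chromatin by enChIP, the isolation of a genomic region through a tagged DNA-binding protein, was sequenced in 2 libraries. In the first, Ba/F3-derived cells (strain C3H) stably expressed 3xFN-Tel-TAL, a FLAG-tagged TAL protein that binds telomeric repeats. In the second, the same parental line expressed 3xFNLDD, a FLAG-tagged LexA protein used as negative control. Both isolates were made from formaldehyde-fixed cells with an anti-FLAG M2 antibody. Whether each line was 1 clone is not given in the sources used here.

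IL-3 binds the alpha chain of its receptor, which pairs with a beta chain that carries the signal. The beta chain activates JAK kinases, which phosphorylate STAT5, and STAT5 then enters the nucleus and drives genes for survival and growth as well as inhibitors that shut the pathway down. In the mouse, IL-3 has a pair of beta chains, a common one shared with GM-CSF and IL-5 and one that serves IL-3 alone. Ba/F3 cells die without IL-3 and are widely used to test receptors and kinases that replace it.

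The question was whether RNAs of these genes were more or less abundant in the isolate of the telomere-binding protein than in that of the control. Reads were summed over all transcripts of a gene and expressed as RPM, counts set relative to all reads of their own library. The 3xFNLDD isolate is the control, and the 3xFN-Tel-TAL isolate is called Tel-TAL for short. The libraries held 7206183 reads (3xFNLDD) and 9774844 reads (3xFN-Tel-TAL), of which 84.8% and 81.1% fell on 11 RNAs that each took more than 1% of a library. There is 1 library per condition, so no difference has a replicate check. Intervals are 95% intervals of counting error only, exact except for the levels of genes with several transcripts. Reads amplified by PCR and lacking molecular identifiers do not stand for separate molecules. The intervals set library against library, not condition against condition. Scaling by TMM (trimmed mean of M values) in place of the totals shifts every log2 ratio by -0.37. In these bulk isolates, fewer cells with an RNA, less of it per cell and less of it on the captured chromatin cannot be told apart.

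The cell type was checked on marker genes. Of 12 hematopoietic markers, 9 had 100 reads or more over both libraries, and their list summed to 167.1 RPM in the control and 272.8 RPM with Tel-TAL. Kit, the stem cell factor receptor, had 2 reads in each library. Markers of the B lineage (7 of 9 listed) summed to 6.94 and 5.42 RPM. Only Pax5 (30 and 31 reads) and Ebf1 (9 and 14 reads), both B-lineage transcription factors, had more than 4 reads in a library, and Cd79a, Igll1 and Dntt were at 0 in 1 library each. Markers of non-hematopoietic cells (6 of 9 listed) summed to 10.5 and 8.80 RPM. Of these sums Pecam1 gave 5.41 and 6.85 RPM, and it alone of that list reached 100 reads. Markers of macrophages (3 of 6 listed) summed to 5.27 and 7.57 RPM, and those of erythroid cells (5 of 6 listed) to 15.5 and 20.1 RPM. All 5 T-cell markers together gave 28.7 and 23.0 RPM, of which Cd3d alone reached 100 reads.

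The beta chain genes and the Stat5 genes are each a pair of neighbouring paralogs with similar coding sequences, so the sequence that separates them is shown before the values. In the RefSeq annotation of GRCm38.p6, Csf2rb2 lies on chromosome 15 from 78282507 to 78305721 and Csf2rb from 78325800 to 78351001, with 20078 bases between them. Stat5b lies on chromosome 11 from 100780731 to 100859004 and Stat5a from 100859351 to 100885169, with 346 bases between them. The coding sequences of Csf2rb and Csf2rb2 were identical at 2505 of 2631 aligned bases (95.2%), with an identical run of up to 242 bases. Those of Stat5a and Stat5b were identical at 2128 of 2346 aligned bases (90.7%), with a run of up to 324 bases. The stretches below are 90 coding bases each, counted from 1 at the start codon in the GENCODE M1 transcripts, and were taken where the identity is closest to that of the whole. Capitals mark the bases that differ between the paralogs.

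Csf2rb, coding bases 23 to 112: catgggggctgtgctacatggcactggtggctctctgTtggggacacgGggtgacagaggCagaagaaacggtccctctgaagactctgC

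Csf2rb2, coding bases 23 to 112: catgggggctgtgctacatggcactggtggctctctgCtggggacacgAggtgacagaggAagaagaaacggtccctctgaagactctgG

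Stat5a, coding bases 154 to 243: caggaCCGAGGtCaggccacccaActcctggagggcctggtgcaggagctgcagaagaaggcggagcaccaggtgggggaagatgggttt

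Stat5b, coding bases 154 to 243: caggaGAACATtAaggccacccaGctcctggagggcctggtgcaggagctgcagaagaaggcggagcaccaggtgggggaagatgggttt

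The receptor pair differs at 4 of these 90 bases and the STAT pair at 8. Over whole transcripts, 18.3% of all 50-base windows of Csf2rb occur unchanged in Csf2rb2, and 15.8% of those of Stat5a occur in Stat5b. A read from such a window fits both genes. The treatment of these reads is not given in the sources used here, so the separate counts of paralogs are uncertain.

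Within a library, levels were compared per length, as RPM per kb of transcript, added over the transcripts of a gene. Their intervals are Poisson intervals of the summed reads, scaled to the level. They are exact only for genes with 1 transcript and can be too narrow for the others. In Jak1 with Tel-TAL, 2 reads on a transcript of 421 bases made 0.486 of the level. In the control the highest level was that of Csf2rb2 (22.6), followed by Pim1 (18.7), Cish (17.2) and Csf2rb (17.0), and the intervals of neighbours in this order overlap. Stat5a (5.38) came next, below all 4 and above Il3ra (1.69), with no overlap on either side. Of the Stat5a level, non-coding transcripts made 2.59 (3958 bases) and 1.14 (7 reads on 850 bases). The main coding transcript of Stat5a made 1.64, which alone is not above Il3ra. Il3ra, Jak1 (1.48) and Stat5b (1.34) could not be ordered beyond counting error. Jak2 (0.447) and Socs3 (0.109) were lowest, with overlapping intervals. With Tel-TAL, Pim1 (33.1) and Cish (31.7) headed the order with overlapping intervals, above Csf2rb (22.6) and then Csf2rb2 (18.8). Il3ra (4.99) stood above Stat5b (2.68), Stat5a (2.49) and Jak1 (2.43), which overlap, and Socs3 (1.02) and Jak2 (0.722), which also overlap, were lowest. The receptor beta chains, Cish and Pim1 thus had the highest levels of the 10 genes in both isolates, while the kinases and Socs3 were represented by few reads.

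**Figure D1:**
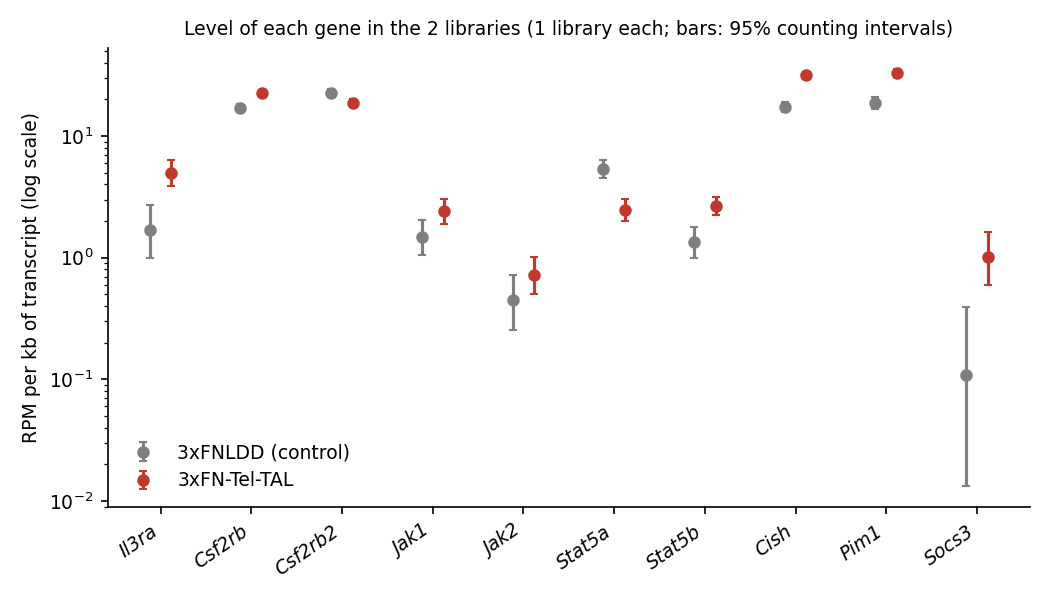
Level of each of the 10 genes in RPM per kb of transcript, on a log axis, in the control (grey) and Tel-TAL (red) library, with 95% counting intervals. Pim1 and Cish move from 18.7 and 17.2 to 33.1 and 31.7, whereas Csf2rb2 and Stat5a are the genes with the lower level with Tel-TAL.

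Of the 10 genes, 7 had 100 reads or more over both libraries, and Il3ra, Jak2 and Socs3 did not. Among these 7, 3 had an RPM ratio above 1.4, namely Stat5b, Cish and Pim1. The study set this threshold for non-coding RNAs and describes it as a ratio of read counts, which does not allow for library depth. Csf2rb and Jak1 would also pass it in that form, for which the share of all gene symbols was not counted. Over all 5920 gene symbols with at least 100 reads, 42.8% were above 1.4, so the share among the 7 genes was that of the background. Stat5a was the single gene below 1/1.4, against 5.83% of all gene symbols. The median log2 ratio of the 7 genes was 0.44 and that of all 5920 gene symbols 0.41. For Stat5b, Cish and Pim1 the whole interval lay above 1.4, as for 14.8% of all gene symbols. By the totals, it lay wholly below 1/1.4 for none of the 7 genes, and for 2.45% of all gene symbols. With TMM scaling, Stat5b and Cish were above 1.4 and Stat5a and Csf2rb2 below 1/1.4, against 17.5% and 14.4% of all gene symbols. The TMM intervals of Stat5a (upper log2 bound -0.833) and Csf2rb2 (-0.488) lay wholly below 1/1.4. Those of Stat5b, Cish and Pim1 (lower log2 bounds 0.149, 0.357 and 0.245) no longer lay wholly above 1.4. The share of all gene symbols with such TMM intervals was not counted. Across the totals and both other scalings, the same genes, Csf2rb2 and Stat5a, had the log2 ratios below 0.

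**Figure D2:**
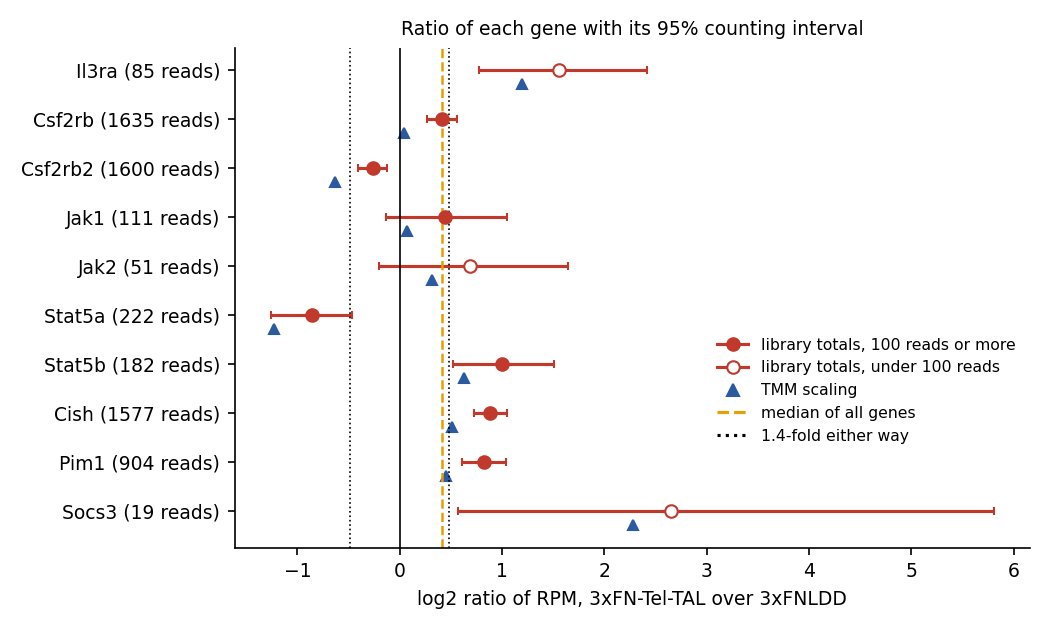
Log2 of RPM with Tel-TAL over RPM in the control for the 10 genes by library totals (circles, with 95% counting intervals, open under 100 reads) and by TMM scaling (triangles). Stat5b, Cish and Pim1 lie right of the 1.4-fold line by the totals, Csf2rb2 (-0.26) and Stat5a (-0.86) lie left of 0, and the dashed line is the median of all gene symbols, 0.41.

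The receptor chains did not share a direction. Il3ra, on chromosome 14 from 14345912 to 14355493, encodes the IL-3-specific alpha chain (CD123). It had 17 reads (2.36 RPM) in the control and 68 reads (6.96 RPM) with Tel-TAL. Its log2 ratio was 1.56 (95% bounds 0.78 and 2.42), and 1.19 with TMM scaling, on 85 reads in all.

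Csf2rb, the common beta chain, had 583 reads (80.9 RPM) in the control and 1052 reads (107.6 RPM) with Tel-TAL. Its log2 ratio of 0.41 (95% bounds 0.26 and 0.56) was at the median of the 5920 gene symbols. Csf2rb2, the beta chain that serves IL-3 alone, had 751 reads (104.2 RPM) and 849 reads (86.9 RPM). Its log2 ratio was -0.26 (95% bounds -0.41 and -0.12). It passed 1.4-fold only with the other scalings (-0.63 with TMM). The paralogs are of like depth, their intervals do not overlap, and the difference between them, 0.67 on the log2 scale, does not depend on the scaling.

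Put as a share of the reads on the pair, Csf2rb took 43.7% (exact binomial 95% bounds 41.0% and 46.4%) of 1334 reads in the control and 55.3% (53.1% to 57.6%) of 1901 reads with Tel-TAL. Added together, the beta chain genes had a log2 ratio of 0.071 (95% bounds -0.031 and 0.17), which is 1.4-fold in neither direction. Each gene was listed with 1 transcript, of 4764 bases for Csf2rb and 4612 bases for Csf2rb2.

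The kinases were shallow. Jak1, on chromosome 4 from 101151974 to 101265282, binds the cytoplasmic part of many cytokine receptors. It had 39 reads (5.41 RPM) in the control and 72 reads (7.37 RPM) with Tel-TAL, a log2 ratio of 0.44 (95% bounds -0.14 and 1.05). Jak2, on chromosome 19 from 29251803 to 29313095, is the kinase that the beta chains carry. It had 16 reads (2.22 RPM) and 35 reads (3.58 RPM), a log2 ratio of 0.69 (95% bounds -0.20 and 1.64). Both intervals hold 0 as well as values above 1.4-fold, so no difference was detectable at this depth. Nearly all reads of Jak1 were on the full-length coding transcript of 4906 bases, with 36 and 64 reads.

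The Jak2 transcripts bear on how reads were assigned. All bases of ENSMUST00000025705 lie within exons of ENSMUST00000065796, yet the former had 13 and 30 reads and the latter 3 and 5. If the annotation used for counting has these exons, at least some reads that fit both transcripts were not counted for both. Whether other reads were counted repeatedly in the sums is not known.

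The STAT5 genes, which encode the transcription factors the kinases activate, differed in opposite directions. Stat5a had 127 reads (17.6 RPM) in the control and 95 reads (9.72 RPM) with Tel-TAL. Its log2 ratio was -0.86 (95% bounds -1.26 and -0.46), at percentile 2.48 of all gene symbols with at least 100 reads. Stat5b had 49 reads (6.80 RPM) and 133 reads (13.6 RPM). Its RPM was 2.001 times that of the control (95% bounds 1.43 and 2.84), at percentile 88.2. The Stat5b share of the reads on the pair was 27.8% (95% bounds 21.4% and 35.1%) in the control and 58.3% (51.6% to 64.8%) with Tel-TAL, and the log2 ratio of the pair together was -0.066 (95% bounds -0.36 and 0.23).

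The low ratio of Stat5a was not shared by its transcripts. The full-length coding transcript ENSMUST00000004145 (3888 bases, 20 exons) had 46 and 59 reads, 6.38 and 6.04 RPM, a log2 ratio of -0.081 (95% bounds -0.66 and 0.51). The processed, non-coding transcript ENSMUST00000154087 (3958 bases, 6 exons) had 74 and 34 reads, 10.3 and 3.48 RPM, a log2 ratio of -1.56 (95% bounds -2.19 and -0.96). These intervals do not overlap. The non-coding transcript took 58.3% (95% bounds 49.2% and 67.0%) of the Stat5a reads in the control and 35.8% (26.2% to 46.3%) with Tel-TAL.

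A further non-coding Stat5a transcript, ENSMUST00000135272, had 7 reads in the control and 0 with Tel-TAL, where 3 reads would be 0.307 RPM. The upper 95% bound of its log2 ratio was -0.97. The remaining coding transcripts of Stat5a had 1 read each. Of the bases of ENSMUST00000154087, 37.4% are also exonic in ENSMUST00000004145. Among 274 genes with a coding and a non-coding transcript of at least 100 reads each, the coding ratio exceeded the non-coding ratio by as much as in Stat5a (1.48 on the log2 scale) in 4 genes, Stat5a included, and the ratios differed by as much in either direction in 7 genes. The median difference over these genes was -0.029. This comparison was chosen after the Stat5a values were seen.

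The listed Stat5b transcripts had like ratios, but they overlap, so the ratios may rest on shared reads. Of the bases of ENSMUST00000004143, 93.6% are also exonic in ENSMUST00000107358. The main coding transcript of Stat5b, ENSMUST00000004143, had 45 and 122 reads, 6.24 and 12.5 RPM, a log2 ratio of 0.999. ENSMUST00000107358 had 4 and 11 reads, a log2 ratio of 1.02 (95% bounds -0.74 and 3.13). When only the main coding transcripts of both genes are counted, the Stat5b share was 49.5% (95% bounds 38.8% and 60.1%) in the control and 67.4% (60.1% to 74.2%) with Tel-TAL. Their intervals meet at the edge.

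**Figure D3:**
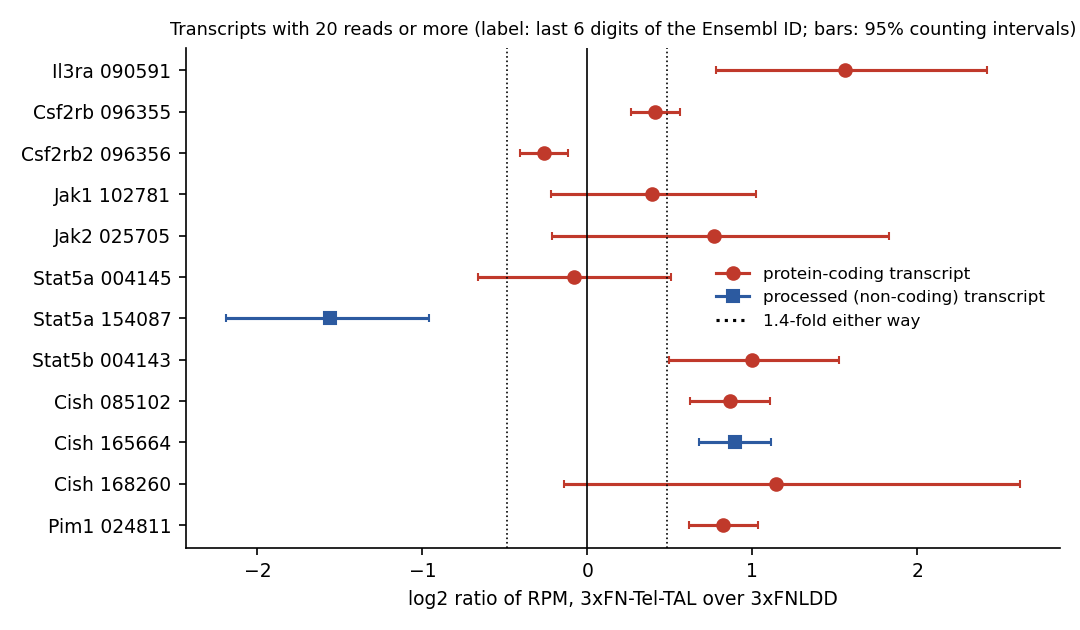
Log2 ratio with 95% counting interval for each transcript of these genes with at least 20 reads, as circles for coding and squares for processed non-coding transcripts. Stat5a splits into a coding transcript near 0 and a non-coding one at -1.56, while the Cish transcripts lie together between 0.86 and 1.15.

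**Figure D4:**
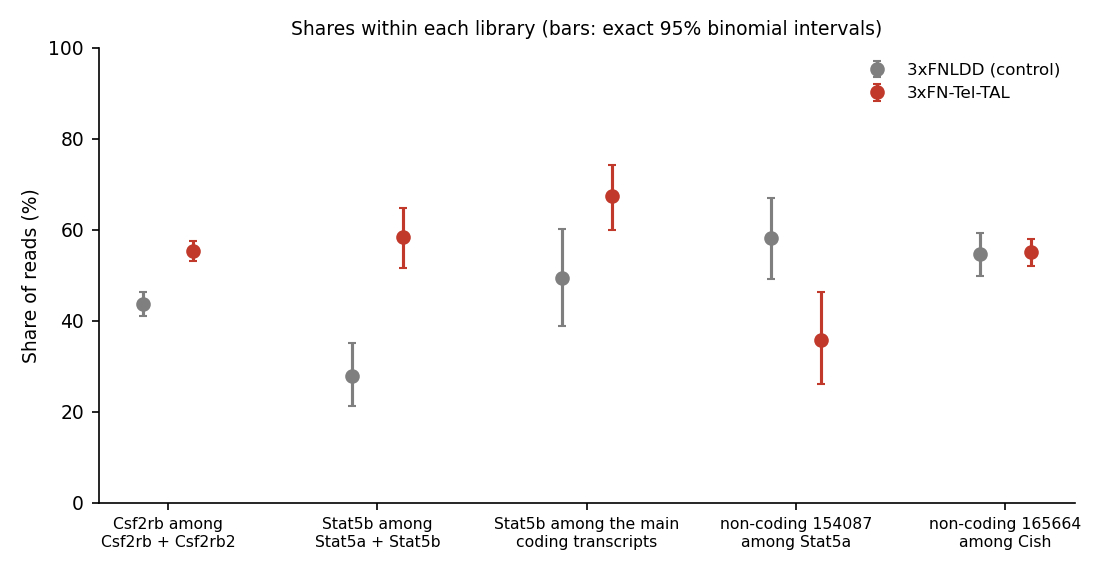
Share of reads in percent within each library, with exact 95% binomial intervals, for Csf2rb and Stat5b among their paralog pairs, for Stat5b among the main coding transcripts, and for the non-coding transcripts among Stat5a and Cish. The intervals of the libraries overlap widely for Cish (54.7% and 55.0%) and at the edge for the main coding transcripts (49.5% and 67.4%), and for the other 3 shares they do not overlap.

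Of the STAT5 targets, Cish and Pim1 had more RPM in the Tel-TAL library. Cish, on chromosome 9 from 107296659 to 107302784, encodes an SH2 protein that binds the activated receptor and limits STAT5 signalling. It had 450 reads (62.4 RPM) in the control and 1127 reads (115.3 RPM) with Tel-TAL. Its log2 ratio was 0.88 (95% bounds 0.73 and 1.05), at percentile 83.7, and 0.52 with TMM scaling.

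All 3 listed Cish transcripts had like ratios, but they overlap, so the ratios may rest on shared reads. Of the bases of ENSMUST00000085102, 67.5% are also exonic in ENSMUST00000165664. Of those of ENSMUST00000168260, 70.9% are exonic in ENSMUST00000085102. The coding transcript ENSMUST00000085102 had 197 and 486 reads (log2 ratio 0.86), and the processed transcript ENSMUST00000165664 had 246 and 620 reads (0.89). The third, ENSMUST00000168260, had 7 and 21 reads (1.15, 95% bounds -0.14 and 2.62).

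Pim1, on chromosome 17 from 29490785 to 29496111, encodes a serine/threonine kinase that favours survival. It had 266 reads (36.9 RPM) in the control and 638 reads (65.3 RPM) with Tel-TAL, all on 1 transcript of 1972 bases. Its log2 ratio was 0.82 (95% bounds 0.61 and 1.03), at percentile 81.0. With TMM scaling it was 0.45, which is just under 1.4-fold. The intervals of Cish and Pim1 overlap, so their ratios cannot be told apart.

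Socs3, on chromosome 11 from 117966079 to 117970336, encodes an inhibitor that binds JAK and receptor chains. It had 2 reads (0.278 RPM) in the control and 17 reads (1.74 RPM) with Tel-TAL. The log2 ratio of 2.65 has an interval from 0.57 to 5.81, so its size is not resolved. Compared with the median of all gene symbols, the log2 ratio was higher by 0.47 for Cish, by 0.41 for Pim1 and by 0.59 for Stat5b, and for Csf2rb2 and Stat5a the difference from the median was -0.67 and -1.27.

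STAT5 binds DNA at the palindromic motif TTCNNNGAA, which reads the same on both strands. The motif was searched in RefSeq promoter windows of GRCm38.p6, from 250 bases before to 50 after each annotated start. It was found in 3 of the 12 windows of 9 of these genes (Csf2rb had no window), compared with 8.30% of all 32851 windows. The matching sites are shown as 30 bases with the motif in capitals, because the targets Cish and Socs3 are among them.

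Cish, plus strand, chr9:107296654-107296683: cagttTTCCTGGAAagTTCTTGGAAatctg

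Socs3, minus strand, chr11:117969501-117969530: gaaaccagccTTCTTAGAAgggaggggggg

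Csf2rb2, minus strand, chr15:78305717-78305746: gtgtccacaaTTCTGAGAAgcaagcaaagc

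In Cish, 2 matches stand side by side, the first at the annotated start and the next 11 bases downstream. The match in Csf2rb2 begins 15 bases before the start. That in Socs3 begins 154 bases before the start its window was built on, which lies inside the gene limits given above, so the match is within the annotated gene. Neither of the Pim1 windows held these letters. Whether the motif bears on the ratios was not tested. The telomeric unit TTAGGG, on either strand, was in none of the 12 windows and in 10.6% of all windows. Among the 16 coding transcripts of these genes none held 3 units in a row. Single units, on either strand, numbered 4 in Csf2rb2 (4612 bases) and in each Jak2 transcript (4947 and 5030 bases). Csf2rb (4764 bases) held 3, and the longest Jak1 transcript (4906 bases) held 0. These are long transcripts, and the frequency over all transcripts was not counted, so the single units do not set these genes apart.

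The rest of the pathway was described through 95 further genes, of which 91 were listed and 64 had at least 100 reads. Of these 64 genes, 38 had a ratio above 1.4 and 0 below 1/1.4, beside 42.8% and 5.83% of all gene symbols. Their median log2 ratio was 0.63, beside 0.41. With TMM scaling, 22 were above 1.4 and 3 below 1/1.4, beside 17.5% and 14.4% of all gene symbols, and the median was 0.27, beside 0.043. A log2 ratio above 0 was found for 59 of the 64 genes by the totals, beside 4797 of all 5920 gene symbols. With TMM scaling it was found for 43 of the 64, and the number over all gene symbols was not counted. By the totals, 17 of the 64 had an interval wholly above 1.4, beside 14.8% of all gene symbols. Counts and intervals by role below are by the totals. The share of 42.8% beside them is over gene symbols of every type. Among 4040 protein-coding transcripts with at least 100 reads, counted singly rather than summed by gene, 48.2% were above 1.4. Of these transcripts 5.89% were below 1/1.4, and their median log2 ratio was 0.46. TMM scaling shifts each log2 bound by -0.37. The lower bounds of Foxo3 (0.49), Pik3cg (0.51), Araf (0.58), Spred2 (0.63), Cdkn1a (0.65) and Akt2 (0.67), among others, then fall under 1.4-fold.

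Other genes that STAT5 is known to drive in blood cells had the highest median of these roles, 0.89. Of these genes 7 of 10 were above 1.4, beside 42.8% of all gene symbols. The deepest were Myc, the growth regulator, with 318 and 647 reads (log2 ratio 0.58), Ccnd2, a G1 cyclin, with 147 and 550 reads (1.46), and Mcl1, a survival factor, with 115 and 272 reads (0.80). Bcl2l1, which encodes the survival factor Bcl-xL, had 46 and 244 reads, a log2 ratio of 1.97 (95% bounds 1.51 and 2.45). Id1 (1.82), Ccnd3 (1.37) and Cdkn1a (0.98) also had intervals wholly above 1.4-fold. Osm, a cytokine that STAT5 induces, was at -0.11 with 66 and 83 reads, and Pim2, a relative of Pim1, at 0.22 with 45 and 71 reads. The interval of Bcl2l1 does not overlap theirs.

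Among negative regulators, 8 of 16 genes with enough reads were above 1.4, beside 42.8% of all gene symbols. Among the deepest were the ubiquitin ligase Cbl (108 and 212 reads, 0.53) and the adaptor Sh2b3 (116 and 202 reads, 0.36). Socs1, the JAK inhibitor related to Socs3, had 36 and 123 reads, a log2 ratio of 1.33 (95% bounds 0.79 and 1.91). The tyrosine phosphatase gene Ptpn1 (1.37) and Spred2 (1.04), a Ras pathway inhibitor, likewise had intervals wholly above 1.4-fold. Socs2 had 0.37 and Socs6 -0.053, and the interval of Socs6 does not overlap that of Socs1.

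Of the other JAK and STAT genes, 3 of 5 with enough reads were above 1.4, beside 42.8% of all gene symbols. Stat3 (101 and 214 reads) had a log2 ratio of 0.64, Jak3 (58 and 139 reads) of 0.82 and Stat6 (62 and 93 reads) of 0.15. None of these 5 lay below 0, and of all 5920 gene symbols 4797 lay above 0. Stat2, which had 52 and 39 reads and so fell short of the minimum, was at -0.85.

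Related cytokines and receptors were mostly shallow, with 4 of 16 genes at 100 reads or more. Of these 4 genes 2 were above 1.4, beside 42.8% of all gene symbols. Il4ra, the IL-4 receptor chain, had 78 and 234 reads, a log2 ratio of 1.15 (95% bounds 0.77 and 1.53). Il2ra (88 and 124 reads) was at 0.055 and Csf3r, the G-CSF receptor, at 0.63 (51 and 107 reads). Csf2ra, the alpha chain that pairs with Csf2rb for GM-CSF, had 10 and 17 reads, and Il5ra, the alpha chain for IL-5, had 16 and 21. Il3 itself was not among the listed genes.

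The Ras-MAPK arm, which the beta chain opens through adaptors, had 7 of 13 genes above 1.4, beside 42.8% of all gene symbols. Its deepest genes were Sos2 (315 and 503 reads, 0.24), Nf1 (252 and 274 reads, -0.32) and Gab2 (165 and 286 reads, 0.35). Grb2, the adaptor between receptor and Sos, had 46 and 302 reads, a log2 ratio of 2.28 (95% bounds 1.82 and 2.76). Araf (0.89), a kinase of the cascade, also had an interval wholly above 1.4-fold.

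In the PI3K-AKT arm, 11 of 16 genes were above 1.4, beside 42.8% of all gene symbols. Pik3cd, a catalytic PI3K subunit, had 302 and 596 reads (0.54) and Gsk3b, a kinase that AKT inhibits, 150 and 286 reads (0.49). Intervals wholly above 1.4-fold were found for Gsk3a (1.33), Pdpk1 (1.17), Akt2 (1.08), Pik3cg (0.998) and Foxo3 (0.83). Mtor, with 95 and 96 reads, was at -0.42. Of the genes above, Osm, Pim2, Socs2, Socs6, Stat2, Csf2ra, Il5ra and Mtor were picked after their values were seen.

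**Figure D5:**
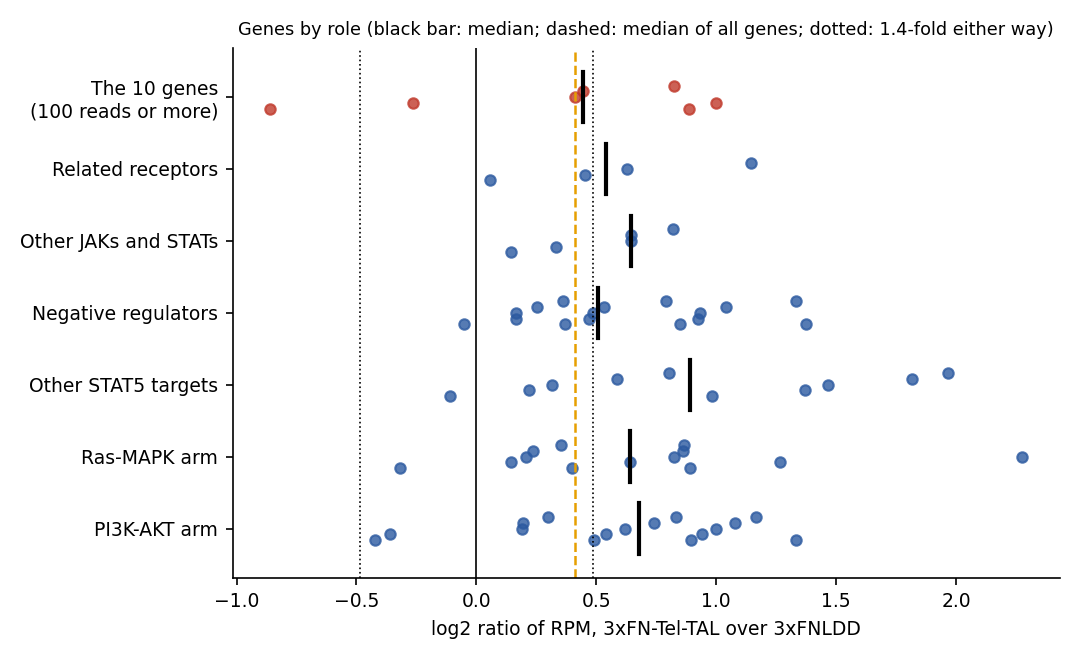
Log2 ratio of each gene with at least 100 reads, by role, with the median of each role as a black bar, the median of all gene symbols as a dashed line and 1.4-fold as dotted lines. Medians of the pathway roles lie between 0.51 and 0.89, and Stat5a (-0.86) has the lowest ratio of all genes drawn.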

How the data were processed

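RNA from 1 enChIP isolate per condition (the 3xFNLDD control and 3xFN-Tel-TAL) of Ba/F3 cells was sequenced by the authors after TruSeq RNA v2 preparation. Per the labels, the submitters' processing notes name cutadapt and the build GRCm38/mm10. The aligner, the annotation release, strand and the treatment of reads that fit several transcripts are not given in the sources used here. The deposited files hold a read count per Ensembl transcript, and the authors' RPM is that count scaled to the library total (recomputed values differed by less than 4.8e-05 RPM).

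Both files were joined on Ensembl ID and counts summed by gene symbol in Python 3.11.15 with pandas 2.3.3, leaving out symbols that stand for several genes (0.0424% and 0.0537% of reads). Log2 ratios of RPM carry no pseudocount. Their intervals come from the exact Clopper-Pearson interval of the 3xFN-Tel-TAL share (scipy 1.17.1). Levels have Poisson intervals of the summed reads of a gene, scaled to its level, which are exact only for genes with 1 transcript. No p-value is given, since there is 1 library per condition. The minimum over both libraries was 100 reads for a gene symbol and 20 for a transcript. The genes and lists were chosen with earlier results of these data known. Besides the 10 genes, the 3 deepest genes of each role and every gene whose interval lay wholly past 1.4-fold were to be named, and some of these genes are not reported here. Alternatives were TMM scaling (edgeR 4.0.16, RNAs with at least 10 reads), totals without the dominant RNAs, a pseudocount of 1, 1 transcript per gene, other read minimums, a ratio of 2, the interval bound, and added paralogs. The code was tested on simulated data. Transcript types, lengths and coding sequences are from GENCODE M1 (NCBIM37), which holds all 22 transcripts by ID, and gene positions and promoters from RefSeq GRCm38.p6. Paralogs were aligned with Biopython 1.88.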

Additional observations from a re-analysis of the deposited data

How the results depend on the processing

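No paired analysis was possible because each condition has 1 library, which also means that none could be left out. The log2 ratios of the 10 genes kept their sign under TMM scaling, totals without the dominant RNAs, a pseudocount and 1 transcript per gene. With 1 transcript per gene Stat5a was at -1.56. With paralogs added, the Stat5 pair was at -0.066, the reverse of Stat5b alone, by construction. The median over the genes with enough reads lay between 0.076 (TMM scaling) and 0.76 (no minimum).

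The count of these genes above 1.4-fold (3 of 7) was 5 of 9 with at least 20 reads, 6 of 10 with no minimum and 1 at a ratio of 2. The count below (1) was 2 with either other scaling and 0 at a ratio of 2 or by the interval bound, both by the totals. For the 64 pathway genes, the count above (38) was 22 with TMM scaling, 13 at a ratio of 2 and 17 by the bound, and with at least 200 reads it was 24 of 38 genes. The count below (0) was 3 with either other scaling, 2 of 56 with 1 transcript per gene, 2 of 80 with at least 20 reads and 5 of 88 with no minimum. For all 5920 gene symbols, the counts above and below (2531 and 345) were 1036 and 855 with TMM scaling, 1191 and 749 without the dominant RNAs, 5139 and 1432 of 12498 with at least 20 reads, 1270 and 180 of 3057 with at least 200 reads, 6721 and 3596 of 17907 with no minimum, 705 and 100 at a ratio of 2, and 875 and 145 by the bound. Depth limits Jak1, Jak2, Il3ra and Socs3 most.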

Other observations

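Among the hematopoietic markers used to check the cell line, Laptm5, a lysosomal membrane protein of blood cells, had 192 reads in the 3xFNLDD control and 791 with 3xFN-Tel-TAL, 26.6 and 80.9 RPM. Lcp1, an actin-bundling protein of leukocytes, had 512 and 915 reads, and Runx1, a hematopoietic transcription factor, 133 and 293 reads. Cd3d, a chain of the T-cell receptor complex, had 178 and 187 reads, 24.7 and 19.1 RPM, while Cd3e, its partner chain, had 6 and 5 reads. These genes were named after their values were seen.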
